A study of Mus musculus with 12 samples.

Results

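The genes described here are the 6 chemokines Cxcl1, Cxcl2, Cxcl3, Cxcl5, Ppbp and Pf4 and the receptors Cxcr1 and Cxcr2, taken by symbol from the 54532 genes listed for each library, so 8 genes in all. Colon RNA of male C57BL/6 mice was sequenced in 12 libraries, 3 in each of 4 groups, to ask how ursolic acid (UA, a plant triterpenoid) changes colitis caused by dextran sulfate sodium (DSS, a polymer that injures the colon epithelium). Control mice (Con) had no DSS and, by the methods, the gavage vehicle only (the sample labels call them untreated). Those of the DSS group drank 3% (w/v) DSS for 5 days and had the vehicle, and the UA+DSS and DSS+UA groups had the same DSS with UA at 200 mg/kg by daily gavage. UA began 24 hours before DSS and ran for 7 days in UA+DSS, and it began 3 days after the start of DSS and ran for 4 days in DSS+UA. These are the days in the methods, and other passages of the same text differ from them for both groups. The mice were 6 weeks old on arrival. DSS colitis is a chemical injury, and the RNA came from pieces of whole colon whose place along the bowel the sources used here do not state. The labels number the libraries of a group without saying that each is a mouse of its own, so p-values measure the spread between libraries.

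Total counts were 15566216 to 19498383 per library, so depth differed little between the groups. Values are CPM, counts relative to the library's total after TMM scaling between libraries, and DSS 2, for example, stands for the second library of the DSS group. A library with no count of a gene allows up to 0.144 to 0.192 CPM of it (3 counts, counting error only). DSS 2 stood apart. Its neutrophil markers, summed without Cxcr2, came to 18938 CPM, against 1064 CPM in DSS 1 and 1258 CPM in DSS 3. DSS 2 also held transcripts typical of small intestine or liver that were looked up after their values were seen. Apoa1, an apolipoprotein, stood at 785 CPM there and at 166 CPM in DSS+UA 3, and at 3.62 CPM or less in the other libraries. DSS 3 carried pancreatic transcripts, with 2063 CPM of the lipase Pnlip against at most 1.47 CPM elsewhere. For the 8 genes, results that rest on DSS 2 are therefore given with and without it, and the part of these other tissues in them was not tested.

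Chemokines of this family draw neutrophils out of the blood. Those with the residues Glu-Leu-Arg (ELR) just before the paired cysteines bind CXCR2, a Gi-coupled receptor of neutrophils, and epithelium, fibroblasts and myeloid cells make them within hours of IL-1, TNF, IL-17 or bacterial products. Ppbp and Pf4 are best known from platelet granules. PF4 is a CXC chemokine without the ELR residues that binds heparin and does not act through CXCR2 in the usual way, and it is included here as the neighbour of the ligands. CXCR1 is the closest relative of CXCR2.

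The 6 chemokine genes lie on the plus strand of chr5:90759360-90905938 (GRCm38), within 147 kb. In order they are Cxcl5 (ENSMUSG00000029371, chr5:90759360-90761624), Ppbp (ENSMUSG00000029372, chr5:90768518-90770063), Pf4 (ENSMUSG00000029373, chr5:90772435-90773383), Cxcl3 (ENSMUSG00000029379, chr5:90786103-90789600), Cxcl1 (ENSMUSG00000029380, chr5:90891241-90893115) and Cxcl2 (ENSMUSG00000058427, chr5:90903871-90905938). Cxcr2 (ENSMUSG00000026180, chr1:74153989-74161246, plus strand) and Cxcr1 (ENSMUSG00000048480, chr1:74191785-74194631, minus strand) are neighbours too. None of the 8 overlaps an annotated gene. One more chemokine lies between them, Cxcl15, known from lung, and it had 5 counts over the 12 libraries together. The stretch of coding sequence around the first cysteine pair shows what sorts these ligands by receptor. The 3 codons before the first cysteine, in capitals, encode Glu-Leu-Arg in 5 of the 6 genes and not in Pf4 (30 bases of each coding sequence, 5′ to 3′, GENCODE M21 on GRCm38):
Cxcl1 (chr5:90891484-90891513): aatGAGCTGCGCtgtcagtgcctgcagacc
Cxcl2 (chr5:90904130-90904159): agtGAACTGCGCtgtcaatgcctgaagacc
Cxcl3 (chr5:90786356-90786385): agtGAGCTGCGCtgtcagtgcctgaacacc
Cxcl5 (chr5:90759715-90759744): acgGAGCTGCGTtgtgtttgcttaaccgta
Ppbp (chr5:90769073-90769102): atcGAACTGCGCtgcagatgtacgaatacc
Pf4 (chr5:90772932-90772961): ggaGATCTTAGCtgtgtgtgtgtgaagacc

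Over the whole coding sequence Cxcl2 and Cxcl3 are the closest pair, with 89.7% of aligned bases identical, and Cxcl1 matches them at 75.7% and 72.7%. Every other pair of ligands shares 47.3% to 56.7%, and Cxcr1 and Cxcr2 share 69.3%. The likeness of Cxcl2 and Cxcl3 bears on the counts, since 126 of the 2159 stretches of 50 bases in the transcripts of Cxcl2 (5.84%) also occur in those of Cxcl3. Cxcl1, Ppbp, Pf4 and Cxcr1 share no such stretch with any other gene. In Cxcr2, 6.68% of stretches occur elsewhere. The sources used here do not say how reads matching several genes were counted.

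Promoter windows from RefSeq (GRCm38.p6) were found for 7 of the 8 genes, and the 250 bases before each start were searched on both strands. The NF-kappaB consensus was present in Cxcl1, Cxcl2 and Cxcl3 and in none of Ppbp, Pf4, Cxcr1 and Cxcr2, and it occurs in 7.25% of all 32851 windows. In each of the 3 genes the consensus matched on both strands, offset by 1 base, as the same run of 11 bases (in capitals). The last 120 bases before the start of these 3 genes, all on the plus strand, read as follows:
Cxcl1 (chr5:90891125-90891244): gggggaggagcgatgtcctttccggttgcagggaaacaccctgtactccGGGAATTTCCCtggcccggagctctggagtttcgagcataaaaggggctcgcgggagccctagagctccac
Cxcl2 (chr5:90903779-90903898): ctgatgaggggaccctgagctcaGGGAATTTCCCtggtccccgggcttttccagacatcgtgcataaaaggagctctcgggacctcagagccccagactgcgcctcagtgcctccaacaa
Cxcl3 (chr5:90785981-90786100): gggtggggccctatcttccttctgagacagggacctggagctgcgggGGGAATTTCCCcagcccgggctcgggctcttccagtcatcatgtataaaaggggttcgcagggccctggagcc

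The motif TATAAA lay 30 to 25 bases before the start of Cxcl3 and of Ppbp, and again 8 to 3 bases before that of Ppbp (12.4% of all windows hold it). TTGCNNAA, a C/EBP-type motif, was found in the window of Pf4 only (9.56% of all windows). TGAGTCA, an AP-1 motif, was found in none of the 7 (4.46% of all windows). These matches are descriptions of the sequence, not of bound sites.

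Cxcl2 and Cxcl3, near twins that attract neutrophils, had no count in healthy colon and were present in every library of the DSS group. Cxcl2 had 0 counts in each of the 3 Con libraries. In DSS it stood at 70.8, 2682 and 80.6 CPM in replicates 1 to 3, a mean of 944 ± 1505 CPM (SD, n = 3). DSS 2 was thus far above the rest. UA+DSS libraries held 0.834, 0.0625 and 4.25 CPM, from 13, 1 and 80 counts. The 3 DSS+UA libraries held 54.8, 12.9 and 101 CPM. DSS 1 and DSS 3 lay within the range of DSS+UA, and UA+DSS lay below both groups with no overlap. Of all tested genes, UA+DSS lay wholly below DSS for 21.7% and wholly below DSS+UA for 22.5%.

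Cxcl3 followed the same order at a lower level. It had no count in Con, 14.6, 610 and 18.6 CPM in DSS, 0.321, 0.0625 and 0.798 CPM when UA came before DSS, and 10.2, 5.01 and 15.9 CPM in DSS+UA. Here too DSS and DSS+UA overlapped through DSS 1, and the highest UA+DSS library was below the lowest DSS+UA library. The ratio of Cxcl2 to Cxcl3 counts was 4.84, 4.39 and 4.32 in the DSS libraries, with counting intervals (95%, exact binomial) of 4.27 to 5.49, 4.31 to 4.48 and 3.85 to 4.86. So the pair kept nearly the same proportion in DSS 2, where both were far higher. In DSS+UA the ratio spread more, at 5.39, 2.57 and 6.37, and DSS+UA 2 was the lowest of the 6.

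Cxcl1 and Cxcl5, which colon epithelium and stroma are known to make, were spread more evenly. Cxcl1 stood at 0.828, 0.444 and 0.160 CPM in Con and at 17.8, 67.1 and 59.1 CPM in DSS. The UA+DSS libraries held 2.18, 0.375 and 3.24 CPM of it, those of DSS+UA 6.58, 7.79 and 18.5 CPM. All DSS libraries were above all Con and UA+DSS libraries, and DSS+UA 3 was above DSS 1. Of all tested genes, DSS lay wholly above Con for 21.2% and wholly above UA+DSS for 21.7%. Cxcl5 stood at 1.71, 0.388 and 0.107 CPM in Con, 67.6, 366 and 181 CPM in DSS, 4.81, 0.375 and 10.5 CPM with UA from before DSS, and 54.1, 122 and 66.0 CPM in DSS+UA. Its highest DSS+UA library, replicate 2, was the one with the lowest Cxcl2, Cxcl3 and Cxcr2 of that group. The count ratio of Cxcl5 to Cxcl1 was 15.6 in that library (13.03 to 18.8), against 8.22 and 3.58 in the other DSS+UA libraries and 3.07 to 5.45 in DSS.

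Ppbp, the precursor of the platelet chemokine NAP-2, stayed low. Its values were 0.207, 0.0555 and 0.160 CPM in Con, 0.722, 7.56 and 1.53 CPM in DSS, 0.385, 0.4998 and 0.106 CPM in the UA+DSS group, and 0.316, 0.124 and 0.721 CPM in DSS+UA. These are 8, 195, 16 and 21 counts per group. Of the 195 counts, 151 were in DSS 2.

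Pf4 was the one ligand with a clear level in healthy colon. It stood at 15.8, 4.77 and 11.6 CPM in Con and at 57.2, 40.5 and 31.5 CPM in DSS. UA+DSS held 17.8, 9.06 and 6.54 CPM and DSS+UA 12.1, 21.9 and 13.8 CPM, so that both overlapped Con and lay below every DSS library. Of all tested genes, 21.7% lay wholly below DSS in UA+DSS and 16.4% in DSS+UA. Pf4 is also the one member in which DSS 2 was not the highest DSS library. The platelet marker list without Ppbp and Pf4 summed to 10.2 to 19.1 CPM in Con and 29.4 to 60.6 CPM in DSS. Most of that was the integrin Itgb3 (39.5 ± 13.8 CPM in DSS), which other cells also make, while Gp1bb and Gp9, subunits of the platelet receptor for von Willebrand factor, had no count in Con or DSS. The other platelet markers measured were not called, with Gp1ba at 0.628 ± 0.156 CPM in Con and 0.496 ± 0.210 CPM in DSS (edgeR adjusted p = 0.691) and Itga2b at 1.75 ± 0.208 and 2.57 ± 1.69 CPM (adjusted p = 0.395). The macrophage list summed to 146 to 354 CPM in Con and 825 to 1822 CPM in DSS, with its highest value, like that of Pf4, in DSS 1. The part of either cell type in Pf4 was not tested, and in whole tissue fewer cells of a type and less RNA per cell cannot be told apart.

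Cxcr2, the receptor of the ELR chemokines, was carried by 1 count in the whole Con group. It stood at 20.4, 373 and 20.1 CPM in DSS, at 0.257, 0.4998 and 1.17 CPM in the UA+DSS group, and at 10.4, 5.57 and 16.2 CPM in DSS+UA. None of the groups overlapped for this gene. Of all tested genes, UA+DSS lay wholly above Con for 9.62% and wholly below DSS+UA for 22.5%. DSS+UA lay wholly below DSS for 16.4%. The gap between Con and UA+DSS rests on few counts, 1 of Cxcr2 in Con 1 and 4 in UA+DSS 1. Cxcr1 was rarer. It had no count in Con, 3, 120 and 7 counts in DSS, 1, 0 and 0 counts in UA+DSS, and 2, 1 and 11 counts in DSS+UA. In DSS 2 there were 62.0 counts of Cxcr2 for each of Cxcr1 (51.8 to 74.9), and 142 and 54.4 in DSS 1 and DSS 3, whose intervals (48.1 to 690 and 26.2 to 136) include that value.

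**Figure D1:**
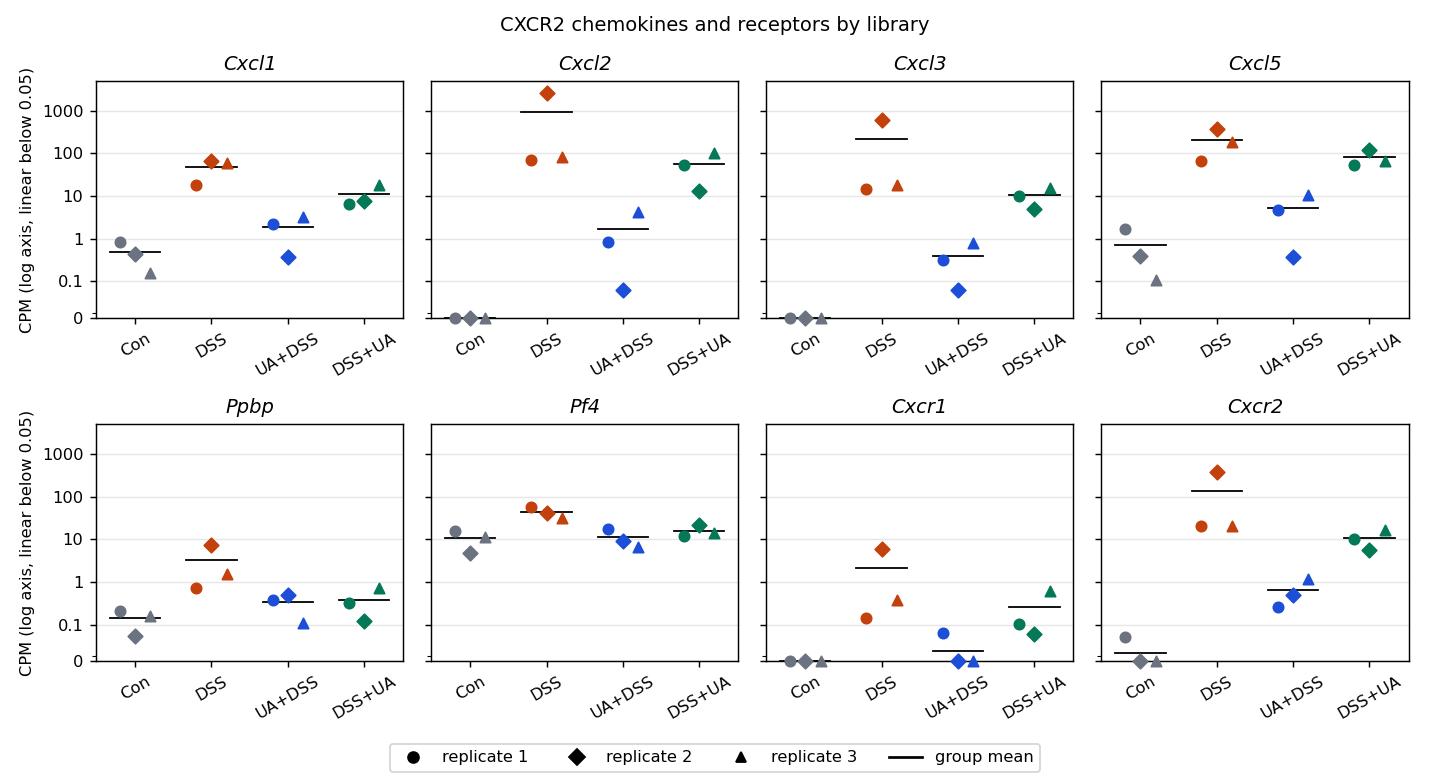
CPM of each gene (log axis, linear below 0.05) in each of the 12 libraries; marker shape gives the replicate and the line the group mean of 3 libraries. DSS 2 (diamond) stands far above the other DSS libraries for Cxcl2, Cxcl3, Cxcr1 and Cxcr2, while Pf4 is present in all groups and highest in DSS 1 at 57.2 CPM.

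How much of the DSS signal came from DSS 2 differed widely between the genes. DSS 2 held 94.8% of the summed CPM of the 3 DSS libraries for Cxcl3, 94.7% for Cxcl2, 92.1% for Cxcr1, 90.2% for Cxcr2 and 77.0% for Ppbp. Both receptors and the twin chemokines were thus nearly all from this 1 library. For Cxcl5 it held 59.5%, for Cxcl1 46.6% and for Pf4 31.3%. An even split would give 33.3%. Among the 15284 tested genes with a DSS mean of at least 1 CPM, the median share of DSS 2 was 31.97%, 8.83% of genes had a share over 50% and 1.56% had a share over 80%. Of the 8 members 6 were past the first mark and 4, Cxcl2, Cxcl3 and both receptors, past the second. Relative to the mean of DSS 1 and DSS 3, DSS 2 was 36.7 times as high for Cxcl3, 35.4 times for Cxcl2, 23.4 times for Cxcr1 and 18.4 times for Cxcr2. It was 6.71 times as high for Ppbp, 2.94 times for Cxcl5 and 1.74 times for Cxcl1, and 0.913 times for Pf4. The DSS mean of Cxcl2 was 944 CPM with DSS 2 and 75.7 CPM without it, and that of Cxcr2 138 and 20.3 CPM. Cxcl1 (48.0 and 38.5 CPM) and Pf4 (43.1 and 44.4 CPM) depended on it far less.

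**Figure D2:**
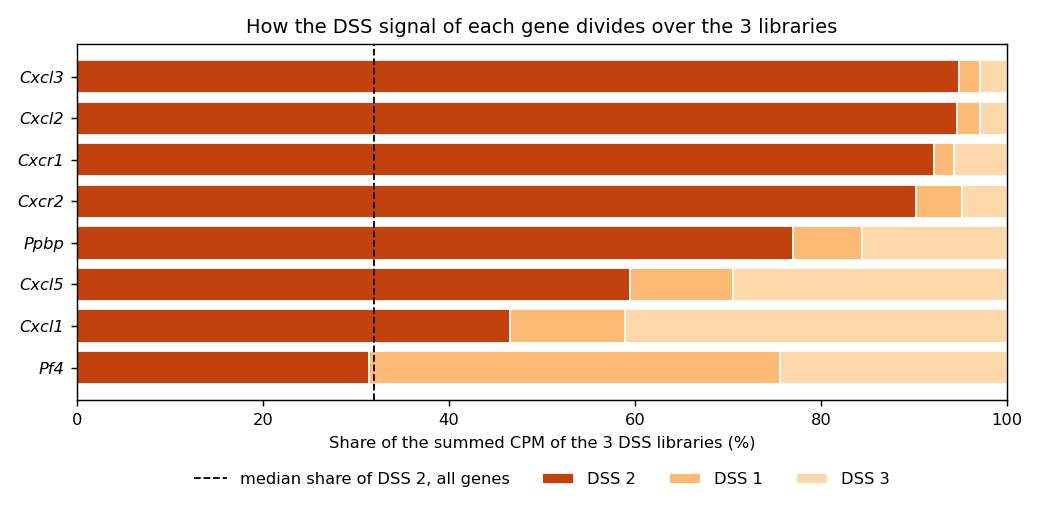
Share of the summed CPM of the 3 DSS libraries held by each library (stacked bars, %), per gene; the dashed line is the median share of DSS 2 over 15284 genes, 31.97%. The share of DSS 2 runs from 31.3% for Pf4 to 94.8% for Cxcl3.

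DSS against Con asks what the colitis itself did to these genes. All 7 members that passed the low-count filter rose, and Cxcr1 did not pass it. They were tested with edgeR's quasi-likelihood method, all 12 libraries in a single model, with Benjamini-Hochberg adjustment over 17658 genes and a threshold of 0.05, and 13.9% of all tested genes rose. Since Con had at least 10 counts in no library for Cxcl2, Cxcl3, Ppbp and Cxcr2, these genes passed the filter only through groups given DSS, so the count of 7 is a description. With the Con group set at a floor of 3 counts in all, DSS held at least 17702-fold more Cxcl2 and at least 4022-fold more Cxcl3 (edgeR adjusted p = 0.00813 and 0.00746). Without DSS 2 these bounds were 1409.7-fold and 309-fold (adjusted p = 0.00994 and 0.00135), and leaving out any other library gave 11597- to 26456-fold and 2635- to 6025-fold. Cxcr2 rose from 1 to 8248 counts, a ratio of 7749 (1390.3 to 306086, edgeR adjusted p = 0.00279), and it was 1138 (204 to 44994) without DSS 2 and at least 1692 without Con 1, the library with that count. Cxcl5 rose by a log2 fold change of 8.10 ± 1.27 (SE, edgeR adjusted p = 0.00311) and Cxcl1 by 6.63 ± 0.92 (adjusted p = 0.00234). Without DSS 2 the log2 fold changes were 7.37 and 6.30, and the DSS mean of Cxcl5 went from 205 to 124 CPM. Ppbp rose by 4.46 ± 1.01 (edgeR adjusted p = 0.0103), and by 2.92 (adjusted p = 0.0330) without DSS 2. Pf4 rose least, by 2.01 ± 0.48 (adjusted p = 0.0128), and by 2.04 without DSS 2. Cxcr1 was at least 40.7-fold higher in DSS against the same floor, or at least 4.71-fold without DSS 2. It was tested in 11 of the 23 alternative settings, where its edgeR adjusted p ran from 0.0185 to 0.0659 and was under 0.05 in 6. All 11 settings kept DSS 2. Cxcr1 had at least 10 counts in 1 DSS library and in no Con library, so these calls are a description. Adjusted p of Cxcl3 was 0.0758 by limma-voom and 0.0568 in a fit of the Con and DSS libraries alone.

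UA+DSS against DSS asks what UA given from before the injury did. All 7 tested members were lowered, where 10.5% of all tested genes were, and for all 8 the UA+DSS libraries lay below every DSS library, as they did for 21.7% of all tested genes. In UA+DSS, at least 10 counts were reached in no library for Ppbp and in 1 for Cxcl3 and Cxcr2, which passed the filter through the other DSS groups, so these counts too are descriptions. Cxcr2 changed by a log2 fold change of -7.69 ± 1.34 (SE, edgeR adjusted p = 0.0101), Cxcl1 by -4.62 ± 0.81 (adjusted p = 0.0101) and Cxcl5 by -5.28 ± 1.08 (adjusted p = 0.0140). Without DSS 2 these were -4.94, -4.31 and -4.57 (edgeR adjusted p = 0.00448, 0.0205 and 0.0337). Cxcl3 changed by -9.01 ± 1.87 (edgeR adjusted p = 0.0172) and Cxcl2 by -9.07 ± 2.09 (adjusted p = 0.0228), which were -5.34 and -5.42 without DSS 2 (adjusted p = 0.0108 and 0.0425). In counts, Cxcl2 was 508-fold lower (415 to 629) with DSS 2 and 40.4-fold lower (32.9 to 50.2) without it, and it was 2138-fold lower (1274 to 3910.1) without UA+DSS 3, which held 80 of the 94 counts of the UA+DSS group. Pf4 changed by -1.95 ± 0.48 (edgeR adjusted p = 0.0206) and Ppbp by -3.31 ± 0.93 (adjusted p = 0.0333), and Ppbp lost its call without DSS 2 (-1.77, adjusted p = 0.160). Cxcr1 went from 130 counts to 1. The UA+DSS libraries also differed from the others in markers of place along the colon. A score of rectal-side minus caecal-side Hox genes (mean log2 CPM) was -5.70 to -4.16 in UA+DSS, 0.37 to 3.10 in DSS, 4.11 to 5.06 in DSS+UA and -3.03 to 5.53 in Con. With this score as a covariate, the log2 fold changes ran from -0.96 for Pf4 to -9.05 for Cxcl3 and none of the 7 was called (adjusted p = 0.154 for Cxcl1 to 0.862 for Cxcl2). Cxcl1 was then at -3.77 ± 1.25 and Cxcr2 at -6.76 ± 5.51. Of all 17658 genes 3 were called in that fit, so the loss of calls is not particular to these genes, and the place of sampling and UA cannot be told apart here. Leaving out UA+DSS 2 left Cxcl1 as the one call (adjusted p = 0.0449), while without UA+DSS 1 Cxcl2, Cxcl3 and Ppbp and without UA+DSS 3 these and Pf4 missed the threshold (adjusted p = 0.0540 to 0.108). Without DSS 1 Pf4 did too (adjusted p = 0.0623).

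DSS+UA against DSS asks what UA did once the injury had begun. No member was called, where 7.54% of all tested genes were, in either direction. All 7 were lower in DSS+UA by their fitted values, and 6 had an unadjusted p under 0.05. DESeq2 gave an adjusted p for 4 members and called 3 of them, Cxcl1, Ppbp and Pf4 (adjusted p = 0.0187, 0.0108 and 0.0192), and limma-voom called 0. The edgeR log2 fold change was -3.68 ± 1.07 for Cxcr2 (SE, adjusted p = 0.0585), -3.05 ± 0.91 for Ppbp (adjusted p = 0.0602), -1.44 ± 0.47 for Pf4 (adjusted p = 0.0752) and -2.13 ± 0.72 for Cxcl1 (adjusted p = 0.0840). For Cxcl3 it was -4.37 ± 1.43 (edgeR adjusted p = 0.0877), for Cxcl2 -4.07 ± 1.65 (adjusted p = 0.141) and for Cxcl5 -1.35 ± 0.91 (adjusted p = 0.343). DSS 2 carried most of the difference for some of them. Without it the log2 fold change of Cxcl2 was -0.41 ± 1.07 (adjusted p = 0.859), that of Cxcl3 -0.67 ± 0.63 (adjusted p = 0.580), that of Cxcr2 -0.90 ± 0.53 (adjusted p = 0.351), that of Cxcl5 -0.61 ± 0.96 (adjusted p = 0.754), that of Ppbp -1.50 ± 0.75 (adjusted p = 0.284) and that of Cxcl1 -1.80 ± 0.77 (adjusted p = 0.220), while that of Pf4 was -1.47 ± 0.52 (adjusted p = 0.154). In counts, the 16.4-fold difference of Cxcl2 became 1.30-fold (1.24 to 1.37), or 26.7-fold (25.2 to 28.2) without DSS+UA 3, and the 12.7-fold difference of Cxcr2 became 1.86-fold (1.67 to 2.07). Intervals of count ratios, here and in the other comparisons, cover counting error only and not the spread between libraries. Without DSS 1, Cxcr2 and Ppbp were called (adjusted p = 0.0393 and 0.0409), and without DSS 3 Cxcr2 was (adjusted p = 0.0384). The position score was 0.37 to 3.10 in DSS and 4.11 to 5.06 in DSS+UA, so place and UA cannot be told apart here either. With it as a covariate, log2 fold changes ran from -1.84 for Pf4 to -6.89 for Cxcl2. None of the 7 was called (edgeR adjusted p = 0.0677 for Pf4 to 0.599 for Cxcl3), and of all 17658 genes 199 were.

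**Figure D3:**
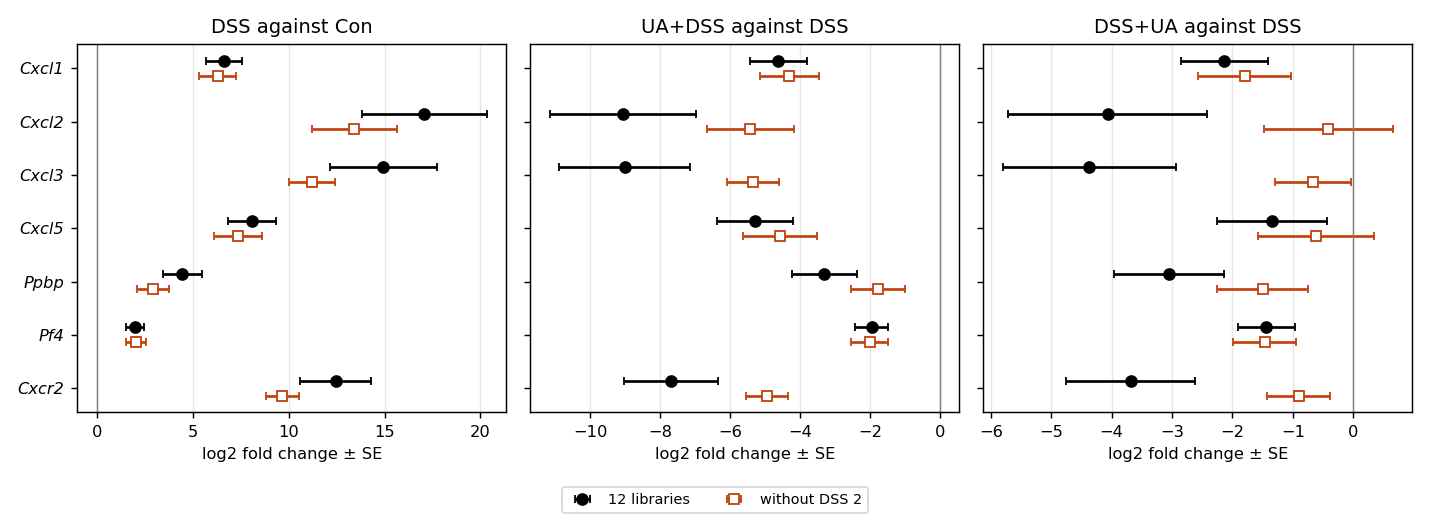
log2 fold change ± SE (edgeR) of the 7 tested genes in 3 comparisons, from 12 libraries (filled circles) and without DSS 2 (open squares). In DSS+UA against DSS, Cxcl2 moves from -4.07 to -0.41 when DSS 2 is left out; Cxcl2 and Cxcl3 have no count in Con, so their fitted values against Con depend on the prior count and are no bounds.

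UA+DSS against Con asks whether these genes were back at the level of healthy colon. No member was called, and of all tested genes 0.00566% were, which is 1 gene. All 7 were higher in UA+DSS by the fitted value, Cxcl1 and Cxcl5 had an unadjusted p under 0.05 (0.0394 and 0.0281, adjusted 0.398 and 0.362), and DESeq2 and limma-voom called 0. This does not show that the levels were equal. Cxcl2 had 94 counts in UA+DSS and 0 in Con, at least 34.9-fold higher against the floor. As 80 of these were in UA+DSS 3, the bound was 8.28-fold without that library, and 22.8- to 50.5-fold without any other. Cxcl5, whose groups overlapped, had 278 counts against 42, a ratio of 7.36 (5.31 to 10.4), which became 3.42 (2.33 to 5.09) without UA+DSS 3 and 22.5 (11.7 to 49.7) without Con 1. Pf4 had 546 counts against 608, a ratio of Con to UA+DSS of 1.00 (0.890 to 1.13).

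In DSS+UA against Con, 5 members rose (Cxcl1, Cxcl2, Cxcl3, Cxcl5 and Cxcr2), where 9.13% of all tested genes did. Con had at least 10 counts in no library for Cxcl2, Cxcl3 and Cxcr2, so this count is a description as well. Cxcl5 rose by a log2 fold change of 6.75 ± 1.21 (SE, edgeR adjusted p = 0.00772) and Cxcl1 by 4.49 ± 0.86 (adjusted p = 0.00955). Cxcr2 had 580 counts against 1 (edgeR adjusted p = 0.0139). Against the floor, Cxcl2 was higher by at least 1080.7-fold and Cxcl3 by at least 197-fold (adjusted p = 0.0281 and 0.0407), or by at least 664- to 1448-fold and 129- to 242-fold with 1 library left out. The calls of Cxcl2 and Cxcl3 held in 7 and 3 of the 12 fits that leave out 1 library, with adjusted p up to 0.0740 and 0.0970, and that of Cxcr2 was lost without Con 3 (adjusted p = 0.0538). Ppbp (1.41 ± 1.07) and Pf4 (0.57 ± 0.46) were not called (adjusted p = 0.360 and 0.399).

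The 2 schedules of UA were also set against each other. In UA+DSS against DSS+UA 3 members were lowered, where 9.23% of all tested genes were. Cxcr2 had at least 10 counts in 1 UA+DSS library and passed the filter through the other DSS groups, so this count too is a description. For each of the 3 members all UA+DSS libraries were below all DSS+UA libraries, as for 22.5% of all tested genes. The log2 fold change was -3.94 ± 1.02 for Cxcl5 (SE, edgeR adjusted p = 0.0276), -4.01 ± 1.21 for Cxcr2 (adjusted p = 0.0458) and -2.49 ± 0.76 for Cxcl1 (adjusted p = 0.0473). Cxcl2 (-5.00 ± 1.78, adjusted p = 0.0866) and Cxcl3 (-4.64 ± 1.68, adjusted p = 0.0914) missed the threshold and passed it without DSS 2 (adjusted p = 0.0291 and 0.00647), a library of neither group. Of the 12 fits that leave out 1 library, Cxcl5 was called in 7 and Cxcl1 and Cxcr2 in 3 each, with adjusted p up to 0.0915, 0.156 and 0.152. Ppbp (-0.26 ± 0.98) and Pf4 (-0.52 ± 0.46) were not called (adjusted p = 0.876 and 0.458). With the position score as a covariate none was called (adjusted p = 0.825 or more for Cxcl1, Cxcl5 and Cxcr2). Nor did edgeR call any of the 17658 genes (2250 had an unadjusted p under 0.05), and place and schedule cannot be told apart.

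The make-up of the 6 ligands changed along with their level. On a scale of CPM per kilobase of the longest protein-coding transcript, so that genes can be compared, the ligands summed to 8.88 to 29.1 in Con, 212, 2422 and 294 in DSS 1 to 3, 16.6 to 36.8 in UA+DSS and 102 to 156 in DSS+UA. Pf4 made up 91.4% to 98.1% of that sum in Con. In DSS the leading ligand differed from library to library, being Pf4 in DSS 1 (45.9%), Cxcl2 in DSS 2 (59.6%) and Cxcl5 in DSS 3 (39.2%). Pf4 led again in the 3 UA+DSS libraries, with 82.4%, 92.8% and 45.7%. In DSS+UA, Cxcl5 led in replicates 1 and 2 (33.8% and 57.4%) and Cxcl2 in replicate 3 (35.0%). The leader depended on the scale in some libraries. By CPM not divided by length, Cxcl2 led in DSS 1 (30.9%, Pf4 25.0%) and in DSS+UA 1 (39.7%, Cxcl5 39.2%). Cxcl5 then led in UA+DSS 3 (41.2%, Pf4 25.7%). As a mean of the 3 libraries Pf4 made up 94.0% ± 3.56 in Con, 22.3% ± 21.8 in DSS, 73.7% ± 24.8 in UA+DSS and 21.0% ± 6.33 in DSS+UA (SD, no test).

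**Figure D4:**
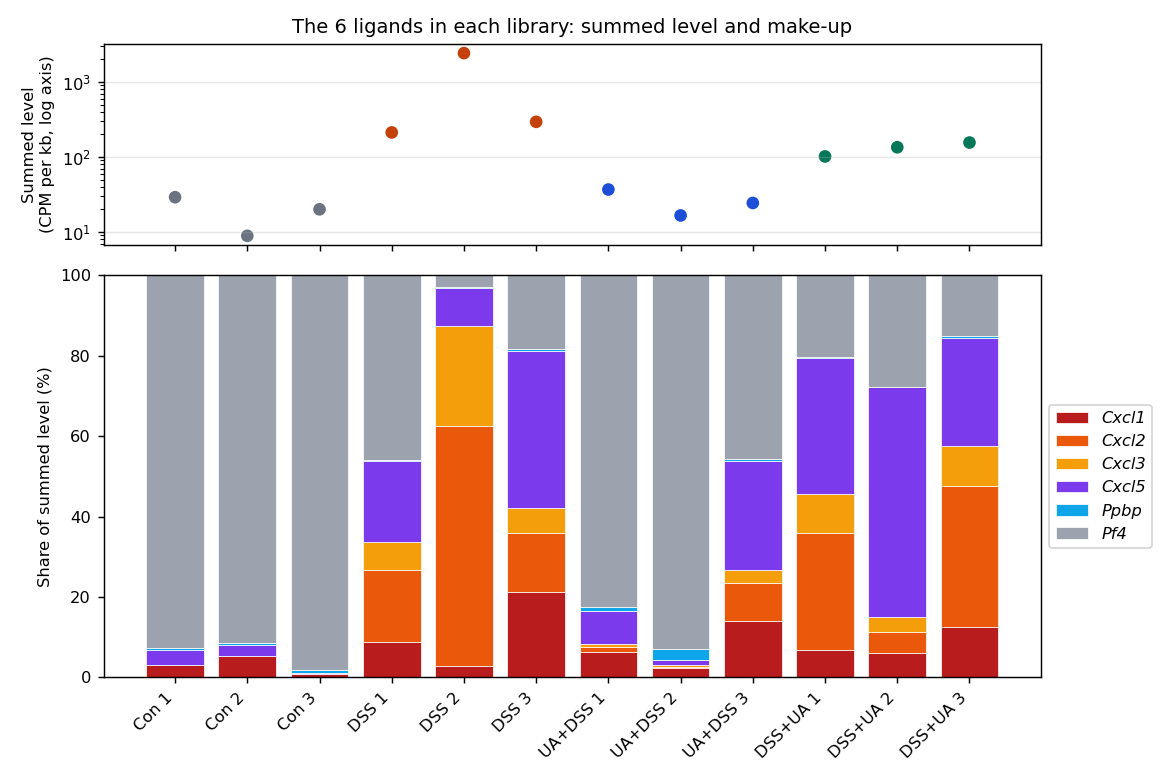
Upper panel: summed level of the 6 ligands (CPM per kilobase, log axis) in each library. Lower panel: share of each ligand in that sum (%); Pf4 makes up 91.4% or more in the Con libraries and 2.85% in DSS 2.

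Set against another gene in the same library, Cxcr2 and Cxcl2 differed less between the DSS libraries than by their own levels. These pairs were chosen after their values were seen. Csf3r, the G-CSF receptor, is like Cxcr2 a gene of mature neutrophils. There were 0.599, 0.565 and 0.818 counts of Cxcr2 for each count of Csf3r in DSS 1 to 3, a narrow range next to the 18.4-fold excess of Cxcr2 in DSS 2. The ratio was 0.773, 0.350 and 0.497 in DSS+UA and 0.0615, 0.242 and 0.338 in UA+DSS. In Con there were 28, 13 and 35 counts of Csf3r and 1, 0 and 0 of Cxcr2. The ratio of Cxcl2 to Il1b, the cytokine IL-1 beta, was 0.590, 0.891 and 0.539 in DSS, 0.806, 0.165 and 0.594 in DSS+UA, and 0.0640, 0.0294 and 0.406 in UA+DSS. In DSS+UA 2, the library with little Cxcl2, Il1b was not low (77.8 CPM, against 68.0 and 171 CPM in replicates 1 and 3). The neutrophil genes S100a8 and S100a9 were lowest there (48.8 and 49.2 CPM, against at least 261 CPM in replicates 1 and 3). Other neutrophil markers were not lowest in that library. Csf3r stood at 15.9 CPM there, against 13.5 and 32.5 CPM in replicates 1 and 3, and Cd177 was highest there (629 CPM).

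**Figure D5:**
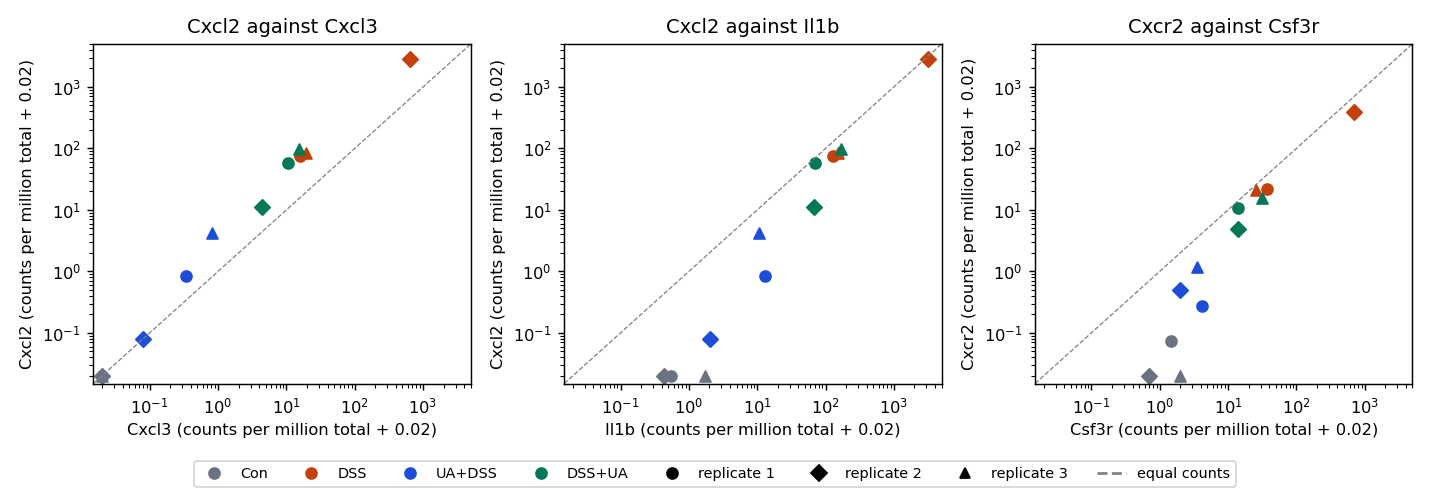
Depth-scaled counts (both axes logarithmic, with a small constant added so that zeros can be drawn) of Cxcl2 against Cxcl3, Cxcl2 against Il1b and Cxcr2 against Csf3r in the 12 libraries; colour gives the group, marker the replicate and the dashed line equal counts. DSS 2 lies at the upper right of each panel, along the line of the other DSS libraries, with 4.39 counts of Cxcl2 for each of Cxcl3.

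The genes whose log2 CPM ran most like each member over the 12 libraries were found among tested genes whose log2 CPM averaged 1 or more (Pearson correlation, a description over libraries that share groups). Cxcl2 ran most like Clec4e (0.986), Il1b (0.980) and Trem1 (0.980), and Cxcl3 most like Trem1 (0.989), Clec4e (0.986) and Hdc (0.986). Cxcr2 ran with Clec4e (0.987), Retnlg (0.982) and Ifitm6 (0.981). Clec4e and Trem1 encode activating receptors of myeloid cells, Retnlg is a neutrophil product and Hdc makes histamine. Cxcl1 ran most like Ccl2, a monocyte chemokine (0.974), Il11 (0.973) and Timp1 (0.966). Cxcl5 ran with Nucb2 (0.960), Tmem184c (0.952) and Myof (0.9502). For Pf4 the nearest were Csf1r (0.967), the receptor of the macrophage growth factor, the lysozyme gene Lyz2 (0.964) and Cd68 (0.957), and for Ppbp they were Ankrd33b (0.951), Chst1 and Sipa1l2 (0.948). Without DSS 2, 1 or 2 of these 3 genes remained among the top 3 of each member. With Spearman correlation, ties for the third place included, none remained for Cxcl1 and Cxcl5, 1 did for Cxcl3, Pf4 and Cxcr2, and 2 did for Cxcl2 and Ppbp.

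Of 7 tested genes among 9 other CXC ligands listed, 3 rose in DSS against Con and 0 fell (median log2 fold change 1.52, against -0.03 over all tested genes). Cxcl13, which draws B cells, rose from 11.2 ± 9.75 to 247 ± 179 CPM (edgeR adjusted p = 0.00519), Cxcl14 from 10.5 ± 1.54 to 42.9 ± 7.12 CPM (adjusted p = 0.00229) and Cxcl16 from 13.9 ± 3.15 to 54.8 ± 20.7 CPM (adjusted p = 0.00772). Cxcl12, a stromal chemokine, stood at 228 ± 98.4 CPM against 131 ± 23.5 CPM and was not called (adjusted p = 0.0902). UA from before DSS went with 3 of the 7 lowered against DSS, and in DSS+UA against DSS 2 were. Beside this list and those that follow, 13.9% of all tested genes rose in DSS against Con. In UA+DSS against DSS 10.5% of all tested genes were lowered. In DSS+UA against DSS 883 of all 17658 were lowered and 448 raised.

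Of the 8 other CXC and atypical receptors, 5 rose in DSS and 0 fell (median 1.60), where 13.9% of all tested genes rose. Cxcr4, the CXCL12 receptor, went from 6.81 ± 0.91 to 48.0 ± 27.3 CPM (edgeR adjusted p = 0.00359). The atypical receptors, which take up chemokines without G protein signalling, rose too, with Ackr1 from 2.35 ± 0.57 to 9.18 ± 2.55 CPM (adjusted p = 0.00502), Ackr2 from 1.44 ± 0.48 to 4.70 ± 1.25 CPM (adjusted p = 0.0214) and Ackr3 from 21.4 ± 2.80 to 42.6 ± 5.28 CPM (adjusted p = 0.00413). These 3 were lowered in DSS+UA against DSS as well (edgeR adjusted p = 0.0363, 0.0343 and 0.00504). In that comparison edgeR called no CXCR2 ligand, but DESeq2 called Cxcl1 and Ppbp (adjusted p = 0.0187 and 0.0108). Without DSS 2, edgeR called 1 of the 8 receptors as lowered there. The UA+DSS group had 5 of the 8 lowered against DSS.

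Downstream of CXCR2, 16 of 22 tested signalling genes rose in DSS and 0 fell (median 1.71), where 13.9% of all tested genes rose. Among the 16 were the Rac activators Prex1 (17.6 ± 5.19 to 81.1 ± 37.8 CPM, edgeR adjusted p = 0.00229) and Dock2 (8.69 ± 2.22 to 59.01 ± 28.3 CPM, adjusted p = 0.00275). The kinase Fgr rose from 3.23 ± 0.64 to 98.3 ± 128 CPM (adjusted p = 0.00608). In UA+DSS against DSS 13 of the 22 were lowered (median -1.14), and in DSS+UA against DSS 4 were lowered and 1 was raised. These genes are active in many white blood cells.

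Among 22 tested inducers and mRNA decay regulators of the chemokines, 16 rose in DSS and 1 fell (median 2.28), where 13.9% of all tested genes rose. Il1b rose from 0.855 ± 0.650 to 1093 ± 1661 CPM (edgeR adjusted p = 0.00332) and the gene of its receptor, Il1r1, from 42.9 ± 4.17 to 126 ± 18.4 CPM (adjusted p = 0.000833). Cebpb, a transcription factor, rose from 13.2 ± 2.81 to 237 ± 236 CPM (adjusted p = 0.00250), and Osm, the cytokine oncostatin M, from 0.321 ± 0.0940 to 60.8 ± 79.0 CPM (adjusted p = 0.00346). UA+DSS against DSS lowered 11 and raised 1. DSS+UA against DSS lowered 2, Il1r1 (26.3 ± 3.85 CPM in DSS+UA, adjusted p = 0.000268) and Cebpb (45.4 ± 5.77 CPM, adjusted p = 0.0352), and raised 1.

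Of 9 tested genes on a list of processing proteases, 8 rose in DSS and 0 fell (median 4.53), where 13.9% of all tested genes rose. Mmp9 rose from 0.767 ± 0.201 to 194 ± 259 CPM (edgeR adjusted p = 0.00250), Mmp12 from 0.528 ± 0.349 to 14.6 ± 8.22 CPM (adjusted p = 0.00315), Ctsc from 111 ± 15.99 to 326 ± 55.5 CPM (adjusted p = 0.00317) and Mmp8, a neutrophil collagenase, from 1 count in Con to 263 ± 399 CPM (adjusted p = 0.00461). Against DSS, UA+DSS had 6 lowered, and in DSS+UA against DSS 3 were. Over the alternative settings the number lowered in UA+DSS against DSS ranged down to 0 for 4 of the 5 lists and to 1 for the inducers. Without DSS 2, the number raised in DSS against Con was 4 of the ligands, 4 of the receptors, 13 of the signalling genes, 14 of the inducers and 8 of the proteases, the number lowered in UA+DSS against DSS was 3, 3, 5, 8 and 4, and that lowered in DSS+UA against DSS was 2, 1, 1, 2 and 1. Of all 18126 genes tested in that fit, 1912 rose in DSS against Con. Lowered were 1110 in UA+DSS against DSS and 367 in DSS+UA against DSS. DSS 2 held most of the DSS level of several of the genes named. Without it the DSS mean was 135 CPM for Il1b, 101 CPM for Cebpb, 15.2 CPM for Osm, 24.6 CPM for Fgr, 44.8 CPM for Mmp9 and 32.9 CPM for Mmp8.

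Markers of other cells moved with these groups. The neutrophil list (14 genes without Cxcr2) summed to 226 to 294 CPM in Con, 205 to 558 CPM in UA+DSS and 1041 to 1263 CPM in DSS+UA, and 1 marker, Mrgpra2b, had no count in Con and UA+DSS. The Con sum is nearly all Cd177, which stood at 126 to 274 CPM there, while S100a8 and S100a9 were at 0.277 CPM or less. Cd177 also made up most of the UA+DSS sums (520, 159 and 333 CPM), and DSS+UA 2 held 629 CPM of it, so the sum of the list did not show the low S100a8 and S100a9 of that library. Epithelial markers summed to 10341 to 15086 CPM in Con and 6404 to 9690 CPM in DSS. Fibroblast markers summed to 1156 to 1953 CPM in Con and 3480 to 7239 CPM in DSS. Their part in the levels of the chemokines and receptors was not tested.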

How the data were processed

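Counts per gene of 12 colon RNA-seq libraries (Illumina Hiseq-2500) were used as deposited. By the methods, the authors checked reads with FastQC, aligned them to GRCm38 and counted them with Hisat2, and the submitters' processing notes also list Cuffdiff. Not given in the sources used here were versions, annotation release, strand setting and what was done with reads that match more than 1 gene. Each library has its own table of raw counts for 54532 genes, of which 123 carry no symbol (0.0297% of counts). Total counts were 15566216 to 19498383 (median 18569669).

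Counts were fitted in R 4.3.3 with edgeR 4.0.16 (quasi-likelihood, robust) over the 12 libraries, after filterByExpr (17658 genes left, 99.8% of counts) and TMM scaling, and p-values were adjusted by Benjamini-Hochberg with a threshold of 0.05. The fit was tested on counts simulated for DSS against Con, where 154 of 200 genes changed by a log2 fold of 2 were called and 7 of the other genes, of 17344 in all. That simulation planted no outlying library, no gene absent from Con alone and no position difference. It therefore does not show how the fit treats genes such as Cxcl2 and Cxcl3. CPM were calculated with the TMM factors. Ratios of counts carry exact binomial intervals (95%), and these and the floor of 3 counts cover counting error only. Gene coordinates, transcript lengths and coding sequences were taken from GENCODE M21 (GRCm38) and promoter windows from RefSeq (GRCm38.p6), searched in Python 3.11.15 with biopython 1.88. DESeq2 1.42.0, limma-voom (limma 3.58.1), other scalings and filters, the replicate number as a block, the position score as a covariate, fits of 2 groups and the omission of each library were the alternatives, 23 settings in all. Chosen after seeing the data were the ligand shares per kilobase of all annotated exons, the count ratios with each library left out and the lists without DSS 2. The members and lists were chosen with earlier results of these data known. All 8 members are named, and of each list up to 4 genes with the smallest p in DSS against Con. The position score is the mean log2 CPM of rectal-side Hox genes minus that of caecal-side Hox genes.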

Additional observations from a re-analysis of the deposited data

Results flagged for a closer look

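UA+DSS and DSS+UA differed for 3 members when set against each other directly. The DSS libraries cancel in the log2 difference but still enter the spread estimated over all 12 libraries. Cxcl1 lost its call without DSS 3 (edgeR adjusted p = 0.0585). Of the 12 fits that leave out 1 library, Cxcl5 was called in 7 and Cxcl1 and Cxcr2 in 3 each. Cxcr2 had at least 10 counts in only 1 UA+DSS library, so the count of 3 is a description. The log2 difference between UA+DSS and DSS+UA was -2.49 for Cxcl1, -3.94 for Cxcl5 and -4.01 for Cxcr2 (edgeR adjusted p = 0.0473, 0.0276 and 0.0458), and in each case all 3 UA+DSS libraries were below all 3 DSS+UA libraries, as they were for 22.5% of all tested genes. The position score also separated these groups (-5.70 to -4.16 against 4.11 to 5.06), and with it as a covariate edgeR called 0 of 17658 genes (2250 had an unadjusted p under 0.05), so place and schedule cannot be told apart.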

How the results depend on the processing

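Of 906 fitted values of a member in a comparison under an alternative, 794 kept direction and side of the threshold, 95 lost a call, 10 gained one and 7 turned in sign, none of these called. DESeq2 gave an adjusted p for 4 members only (not for Cxcl2, Cxcl3 and Cxcr2), and a minimum of 10 counts in every library left Pf4 alone to test. In DSS against Con, 7 members were called, 4 by DESeq2, 1 with the minimum of 10 counts and 7 to 8 when 1 library was left out. The 7 calls of UA+DSS against DSS became 4 by DESeq2, 4 by limma-voom, 1 with that minimum, 0 with the position score and 1 to 8 when 1 library was left out. In DSS+UA against DSS the count of 0 became 3 by DESeq2 and 0 to 2 with 1 library left out. The count in UA+DSS against Con was 0 under all 23 alternatives. In DSS+UA against Con the 5 calls became 2 by DESeq2, 2 by limma-voom, 3 without a low-count filter, 0 with the minimum of 10 counts, 1 with the position score and 2 to 5 with 1 library left out. The 3 calls of UA+DSS against DSS+UA became 1 by limma-voom, 1 by library size alone, 0 without a filter, 0 with the minimum of 10 counts, 0 with the position score, 5 in a fit of these groups alone and 0 to 5 with 1 library left out. DESeq2 did fit Cxcl2, Cxcl3 and Cxcr2 (log2 fold changes of 16.6, 14.4 and 12.8 in DSS against Con). Why it gave them no adjusted p was not tested. The minimum of 10 counts tested fewer members, and for the rest the cause was not tested.

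With the replicate number as a block, DSS against Con kept 7 calls, UA+DSS against DSS had 5 (Cxcl2 and Ppbp missed at adjusted p = 0.0631 and 0.0632), DSS+UA against Con had 3 and UA+DSS against DSS+UA had 1. Correlations of the deviations from group means ran from -0.216 to 0.187 between libraries of the same number, with 5 of 18 over 0.1. For different numbers they ran from -0.289 to 0.240. The labels do not say what the number stands for, and whether such libraries share more than it was not tested.

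The log2 differences that turned in sign were those of Cxcl2 (2.82), Ppbp (0.11) and Pf4 (0.87) in UA+DSS against DSS+UA with the position score, of Ppbp there without UA+DSS 3 (0.17) and without DSS+UA 3 (0.51; -0.69 to 0.51 with 1 library left out), and of Pf4 in UA+DSS against Con without Con 2 (-0.29) and without UA+DSS 1 (-0.45; -0.45 to 0.45 with 1 library left out). The median DSS 2 share of the 8 genes was 83.6% to 83.8% under the scalings tried. Depth limits what can be said of Ppbp and Cxcr1, with 195 and 130 counts in the DSS group and 8 and 0 in Con.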

Other observations

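DSS 2 and DSS+UA 3 held intestinal transcripts that the others nearly lacked, looked up after their values were seen. Apoa4, an apolipoprotein of the small intestine, stood at 306 CPM in DSS 2 and 66.6 CPM in DSS+UA 3, against at most 0.4998 CPM elsewhere. Cyp3a11, a drug-metabolising enzyme, stood at 119 and 24.2 CPM in these libraries, against at most 0.937 CPM elsewhere. Sis, sucrase-isomaltase, stood at 143 and 45.2 CPM there and at 32.4 CPM in UA+DSS 2. DSS+UA 3 was also the DSS+UA library with the highest Cxcl1, Cxcl2, Cxcl3 and Cxcr2, and UA+DSS 2 that with the lowest Cxcl1, Cxcl2, Cxcl3 and Cxcl5 of its group.

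The ratio of Pf4 to Ppbp counts was 76.5, 86.0 and 72.0 in Con and 79.3 in DSS 1, but 5.36 in DSS 2 (4.50 to 6.42) and 20.6 in DSS 3 (14.2 to 31.0). The ratio of Cxcl2 to Cxcl5 counts was 1.05, 7.33 and 0.444 in DSS 1 to 3 and 1.01, 0.106 and 1.53 in DSS+UA.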
